A study of Mus musculus with 30 samples.

Results

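The genes described here are the semaphorins, their plexin receptors, the Slit ligands with their Robo receptors, and the netrins with their Unc5 receptors. They were chosen by gene symbol from the deposited expression table, and 43 of its 18847 genes matched: 7 secreted class 3 semaphorins, 13 membrane semaphorins of classes 4 to 7, 9 plexins, 3 Slit ligands, 4 Robo receptors, 3 netrins and 4 Unc5 receptors. The study sequenced RNA from sorted stromal cells of the thymus of newborn B6.SJL mice of mixed sex, injected on postnatal day 1 and taken on postnatal day 3. Mice received either aflibercept (VEGF-Trap, called Trap here), a decoy made of parts of VEGF receptors that binds VEGF-A, or hFc protein as the control. In each of 5 populations there were 4 Trap and 2 control libraries, 30 in all. Cells positive for CD45 were first depleted on magnetic beads. CD140a mesenchyme and CD146 mesenchyme were sorted as positive for the protein that names them among cells negative for EpCAM and CD31. Among EpCAM-positive cells, those high in Ly51 were taken as cortical thymic epithelium (cTEC) and those low in it or negative as medullary thymic epithelium (mTEC), and endothelium was positive for CD31. The number of animals behind a library is not stated, nor whether populations came from the same animals. Each p-value therefore rests on the spread among libraries, which may be partly technical.

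Semaphorins, Slits and netrins were found as cues that steer growing axons, by attraction or repulsion, and they also act on blood vessels, epithelium and migrating lymphocytes. Most class 3 semaphorins bind a neuropilin that sits beside a plexin, membrane semaphorins mostly bind plexins directly, Slits bind Robo receptors, and netrins bind Unc5 receptors, Dcc and neogenin. Neuropilins are also coreceptors for VEGF. The stroma of the newborn thymus joins vessels, mesenchyme and epithelium around developing T cells, so ligands and receptors of these families can sit on neighbouring cells.

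The promoters of the 3 genes with the largest log2 difference between endothelium and the other populations (Robo4, Sema3g and Sema7a, described with their families) are printed to show the sequence at the start of genes high in 1 population. Each runs from 250 bases before to 50 bases after the RefSeq start on GRCm38.p6, 5′ to 3′. Capitals mark a match to CNGGAAG or, on the other strand, CTTCCNG, a motif of the kind bound by ETS transcription factors, a family with several endothelial regulators.
Robo4, chr9:37401722-37402021, plus strand: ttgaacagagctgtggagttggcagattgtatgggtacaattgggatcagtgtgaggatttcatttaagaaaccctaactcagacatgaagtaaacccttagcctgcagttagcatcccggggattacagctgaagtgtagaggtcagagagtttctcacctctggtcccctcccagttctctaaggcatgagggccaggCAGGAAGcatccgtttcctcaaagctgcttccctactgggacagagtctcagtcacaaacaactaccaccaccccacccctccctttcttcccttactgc
Sema3g, chr14:31217623-31217922, plus strand: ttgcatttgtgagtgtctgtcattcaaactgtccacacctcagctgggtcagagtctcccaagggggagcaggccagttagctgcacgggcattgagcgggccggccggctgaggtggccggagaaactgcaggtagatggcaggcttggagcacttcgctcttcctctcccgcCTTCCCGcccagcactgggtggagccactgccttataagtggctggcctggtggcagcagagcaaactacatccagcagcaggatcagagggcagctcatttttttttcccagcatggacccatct
Sema7a, chr9:57939862-57940161, plus strand: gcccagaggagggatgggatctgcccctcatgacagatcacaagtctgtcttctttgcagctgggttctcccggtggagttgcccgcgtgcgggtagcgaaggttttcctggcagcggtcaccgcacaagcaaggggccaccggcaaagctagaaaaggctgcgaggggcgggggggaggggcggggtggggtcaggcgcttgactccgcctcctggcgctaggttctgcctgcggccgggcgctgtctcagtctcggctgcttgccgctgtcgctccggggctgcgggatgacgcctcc
The motif, searched on both strands, was in 31.9% of all 32851 promoters of the RefSeq table. It was in 17 of the 48 promoters (35.4%) of the 35 guidance genes found there, some of which have several. By gene, it was in a promoter of 3 of the 9 with their highest level in endothelium and of 12 of the 26 others. The Sema7a window held no match to these letters.

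The deposited values are FPKM, fragments scaled to gene length and to the fragments of the library, so levels of different genes can be set side by side. They summed to between 184608 and 241993 per library, and the number of reads behind them is not known. The sorted populations carried their own markers. The 8 endothelial markers summed to between 1333 and 1462 FPKM in endothelium and to at most 37.9 FPKM in any other library, the 8 fibroblast markers to between 4693 and 6650 FPKM in CD140a mesenchyme, and the 8 mural cell markers to between 4973 and 6432 FPKM in CD146 mesenchyme. Fibroblast markers reached 420 FPKM in CD146 mesenchyme and at most 28.7 FPKM outside mesenchyme, and mural markers reached 758 FPKM in mTEC and at most 271 FPKM in the other 3 populations. The mural sum in mTEC was mostly Rgs5, at 425 to 689 FPKM. There Myh11 was at 26.9 to 52.0 FPKM, Pdgfrb at most 4.41 FPKM and Kcnj8 at most 0.04 FPKM. The 8 cTEC markers summed to between 926 and 1383 FPKM in cTEC, and the 8 mTEC markers to between 791 and 1119 FPKM in mTEC. Other cell types were also present. The 8 thymocyte markers summed to between 50.3 and 121 FPKM in cTEC and to at most 11.5 FPKM elsewhere, and the 7 Schwann and neural markers reached 18.6 FPKM in CD146 mesenchyme. Endothelial Trap replicate 2 stood apart, with 11.0 FPKM of the epithelial transcription factor Foxn1 and 7.43 FPKM of the keratin Krt5, while the other 5 endothelial libraries held at most 0.11 FPKM of Foxn1 and 0.68 FPKM of Krt5.

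The guidance genes divided the thymic stroma by population. A gene was tested where it reached 1 FPKM in at least 2 libraries, which 42 of the 43 did, and the exception, Unc5d, was highest in mTEC at 0.37 to 1.13 FPKM. By mean level, 12 of the 42 were highest in endothelium, 11 in CD140a mesenchyme, 8 in CD146 mesenchyme, 7 in mTEC and 4 in cTEC. In 21 of the 42 the 6 libraries of the highest population all lay above the other 24 libraries, which was the case for 21.7% of all 16425 genes tested. These were 9 genes of endothelium, 7 of CD140a mesenchyme, 2 of CD146 mesenchyme, 2 of cTEC and 1 of mTEC, where the shares of all genes were 3.57%, 3.47%, 2.39%, 3.23% and 9.03%. In bulk RNA a lower level can come from fewer cells that hold the transcript or from less transcript per cell, and these cannot be told apart.

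**Figure D1:**
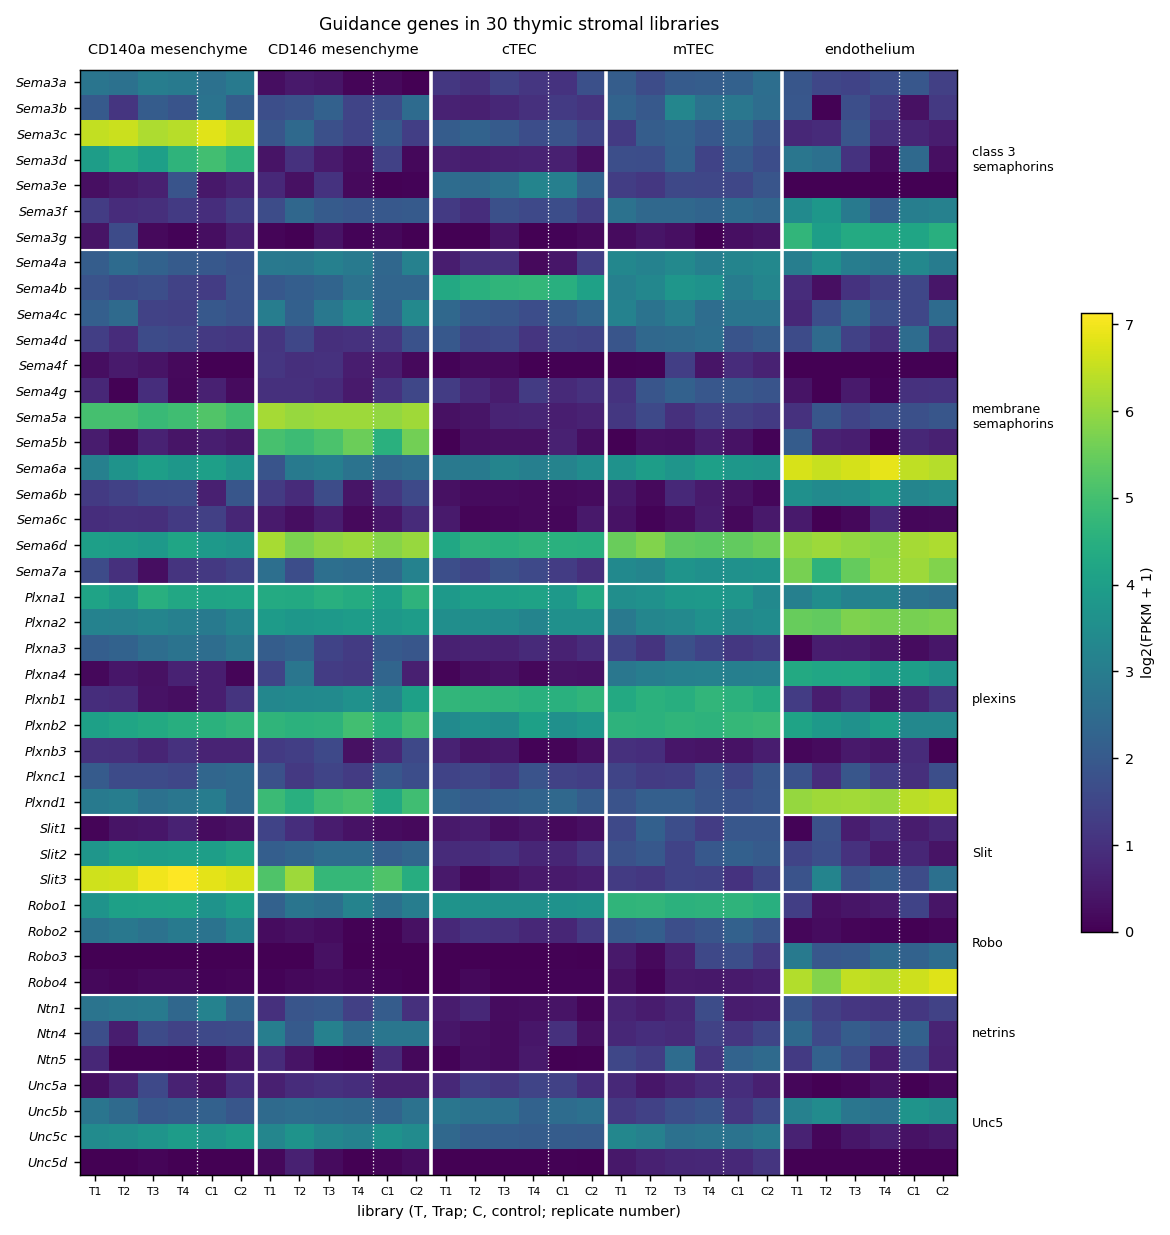
Each row is 1 of the 43 guidance genes, grouped by role, and each column 1 of the 30 libraries, with Trap (T) left of control (C) in each population; colour is log2(FPKM + 1). Robo4 is bright only in the 6 endothelial columns (55.6 to 109.5 FPKM, at most 0.52 FPKM elsewhere), and Sema3c is at 76.0 to 112 FPKM only in CD140a mesenchyme.

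Of the secreted class 3 semaphorins, which diffuse from the cell and act through neuropilins and plexins, 3 were highest in CD140a mesenchyme. Sema3c, known from the outflow tract of the heart, had 87.8, 94.3, 76.0 and 82.0 FPKM in Trap and 112 and 92.3 FPKM in control CD140a mesenchyme, against at most 4.41 FPKM in the other 24 libraries. CD140a mesenchyme did not overlap them, with a log2 difference from the mean of the other 4 populations, the measure used for each single population below, of 4.93 ± 0.17 (SE; limma, adjusted p = 1.6e-18). Sema3d, known for guiding neural crest and vessels, had 14.8, 19.7, 15.4 and 24.2 FPKM in Trap and 30.2 and 24.2 FPKM in control CD140a mesenchyme. All 6 lay above every other library, the highest of which was endothelial at 6.02 FPKM, and the log2 difference was 3.41 ± 0.30 (SE). Sema3a, which repels axons through neuropilin-1 (Nrp1), had 5.79, 5.34, 7.08 and 6.59 FPKM in Trap and 5.34 and 6.63 FPKM in control CD140a mesenchyme. These were narrowly above the highest mTEC library at 5.02 FPKM, while CD146 mesenchyme held at most 0.40 FPKM (log2 difference 1.49 ± 0.13, SE).

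The other class 3 genes had their highest means elsewhere. Sema3g, which binds neuropilin-2 (Nrp2), had 24.9, 15.1, 19.4 and 19.1 FPKM in Trap and 17.3 and 21.7 FPKM in control endothelium, while no other library passed 2.10 FPKM. Its log2 difference was 4.09 ± 0.17 (SE; limma, adjusted p = 4.2e-17). Sema3f, which also binds Nrp2, had 9.69, 12.8, 6.63 and 3.5 FPKM in Trap and 7.24 and 7.81 FPKM in control endothelium, and its lowest library lay below mTEC at 3.92 to 5.43 FPKM (log2 difference 1.34 ± 0.17, SE). Sema3e, which binds plexin D1 without a neuropilin, had 4.71, 4.53, 5.31 and 8.33 FPKM in Trap and 7.45 and 3.77 FPKM in control cTEC. It was listed at 0 to 0.01 FPKM in all 6 endothelial libraries and reached 2.68 FPKM in mTEC, so cTEC overlapped no other population (log2 difference 2.05 ± 0.18, SE). Sema3b had 3.83, 2.96, 8.59 and 5.41 FPKM in Trap and 6.04 and 4.82 FPKM in control mTEC, which overlapped CD140a mesenchyme at 1.16 to 5.56 FPKM and CD146 mesenchyme at 1.76 to 4.68 FPKM (1.12 ± 0.23).

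The neuropilins, which are not members of these families, followed a broader pattern. Nrp1 averaged 35.4 ± 4.23 FPKM in endothelium, 26.8 ± 2.62 in CD140a mesenchyme, 21.1 ± 1.79 in CD146 mesenchyme, 2.09 ± 0.521 in mTEC and 1.203 ± 0.374 in cTEC (SD, n = 6 each). Nrp2 averaged 71.0 ± 5.61 FPKM in endothelium, 18.7 ± 5.898 in CD146 mesenchyme, 13.9 ± 3.71 in CD140a mesenchyme, 10.7 ± 1.45 in mTEC and 1.42 ± 0.388 in cTEC. Both had their lowest mean in cTEC, where the log2 difference of Nrp2 was -3.22 ± 0.14 (SE; limma, adjusted p = 1.6e-16).

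**Figure D2:**
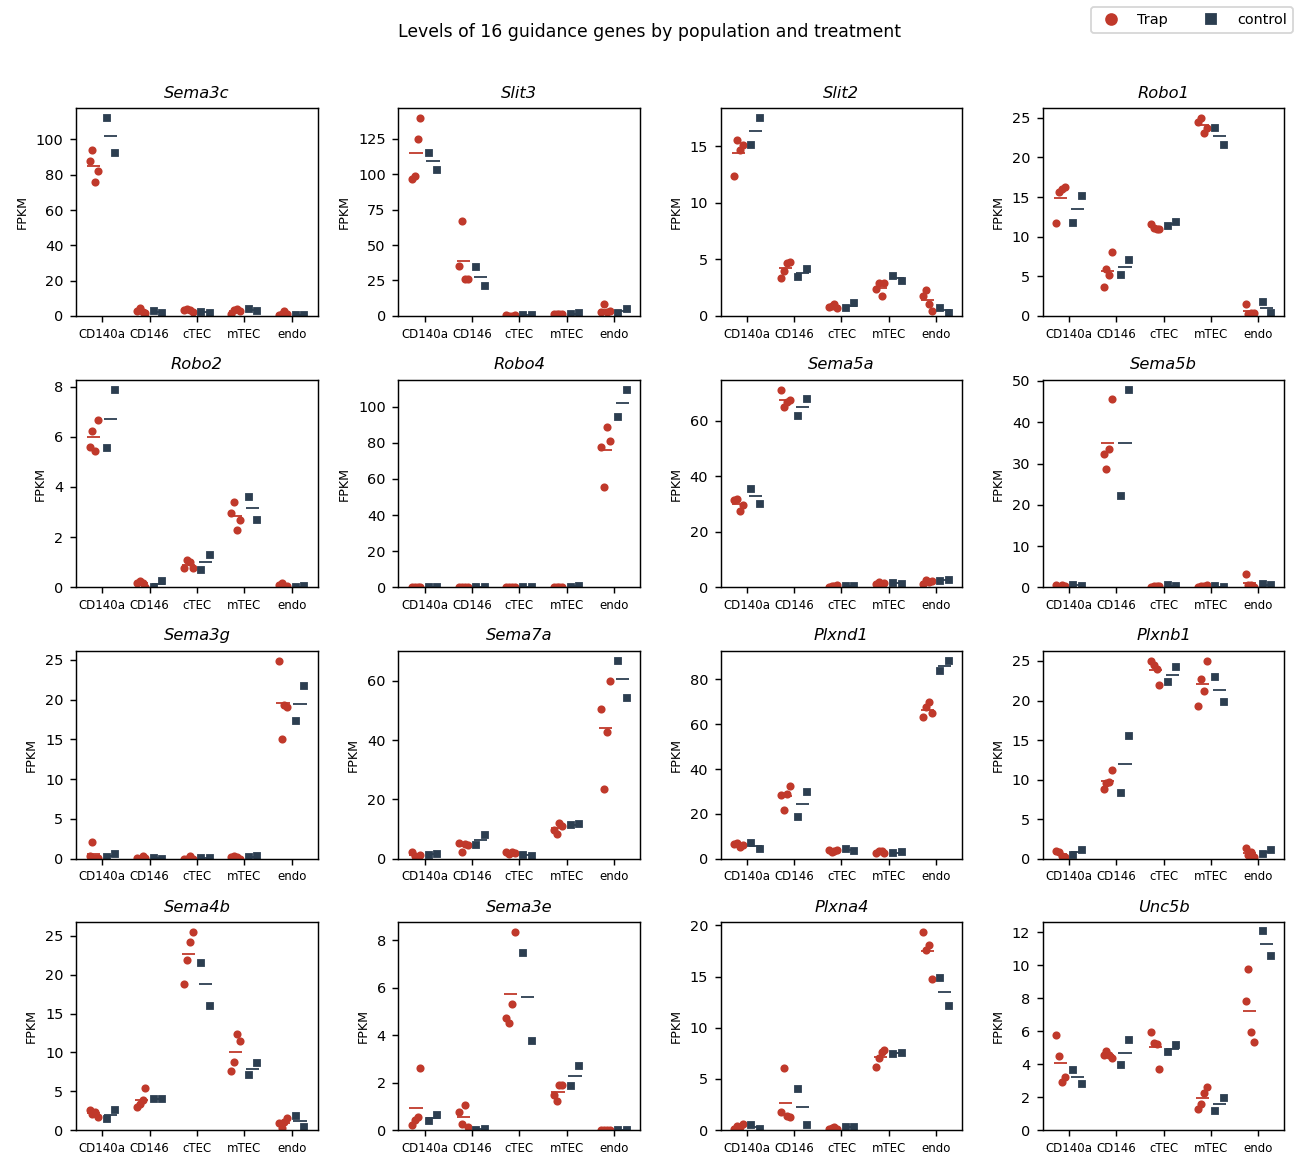
FPKM of 16 guidance genes in the 5 populations, with each point 1 library (red circles Trap, dark squares control, left and right within a population) and each line the mean of its group. For Slit3 the CD140a libraries lie at 96.3 to 139 FPKM above CD146 mesenchyme at 20.8 to 67.2 FPKM, and for Robo1 the mTEC libraries lie at 21.6 to 25.0 FPKM above all others.

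Membrane semaphorins, which signal between touching cells, gave both mesenchymal and endothelial patterns. Sema5b, a semaphorin with thrombospondin repeats, had 32.3, 28.6, 33.5 and 45.7 FPKM in Trap and 22.2 and 47.9 FPKM in control CD146 mesenchyme, while no other library passed 3.22 FPKM. Its relative Sema5a had 71.2, 65.0, 66.6 and 67.3 FPKM in Trap and 61.7 and 67.8 FPKM in control CD146 mesenchyme, against 27.6 to 35.6 FPKM in CD140a mesenchyme and at most 2.77 FPKM elsewhere. Sema5b was thus near 0 in CD140a mesenchyme, and Sema5a was high in both mesenchymal populations at unequal levels. The log2 difference was 4.65 ± 0.20 for Sema5b and 3.93 ± 0.11 for Sema5a (SE; limma, adjusted p = 4.9e-16 and 7.9e-20). Sema4c, a ligand of plexin B2, had 7.20, 3.58, 6.20 and 9.07 FPKM in Trap and 3.84 and 9.32 FPKM in control CD146 mesenchyme, which overlapped mTEC at 4.91 to 8.02 FPKM. Its difference of 0.68 ± 0.22 (SE; limma, adjusted p = 0.0140) no longer passed without CD146 control replicate 2, at 0.41 (adjusted p = 0.248), or among control libraries alone, at 0.61 (adjusted p = 0.237).

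In endothelium 4 membrane semaphorins at 5 FPKM or more had their highest mean. Sema6a, a ligand of plexins A2 and A4, had 102, 91.2, 102 and 116 FPKM in Trap and 86.2 and 79.4 FPKM in control endothelium, against at most 15.4 FPKM elsewhere (log2 difference 3.22 ± 0.14, SE). Sema7a, which is tethered to the membrane by a lipid and binds plexin C1 and an integrin, had 50.4, 23.6, 42.8 and 59.95 FPKM in Trap and 66.7 and 54.3 FPKM in control endothelium. All 6 lay above mTEC, the next population, at 8.49 to 11.9 FPKM, and the lowest was Trap replicate 2, the library with epithelial transcripts (log2 difference 3.52 ± 0.18, SE; limma, adjusted p = 6.6e-15). Sema6b, also a class 6 ligand, had 11.0, 9.76, 10.1 and 12.5 FPKM in Trap and 8.49 and 9.23 FPKM in control endothelium and at most 2.77 FPKM elsewhere (2.65 ± 0.17). Sema6d, a ligand of plexin A1, was high throughout. It had 62.5, 67.3, 61.8 and 57.1 FPKM in Trap and 70.7 and 76.1 FPKM in control endothelium, and overlapped CD146 mesenchyme at 51.8 to 72.1 FPKM (1.13 ± 0.08). It averaged 44.4 ± 5.24 FPKM in mTEC, 21.9 ± 2.06 in cTEC and 14.4 ± 1.71 in CD140a mesenchyme (SD, n = 6 each).

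The epithelial populations differed in Sema4b and in Sema4a, which is known as a costimulator of T cells. Sema4b had 18.9, 21.9, 24.3 and 25.5 FPKM in Trap and 21.5 and 16.02 FPKM in control cTEC, above mTEC at 7.03 to 12.4 FPKM and all other libraries (log2 difference 2.39 ± 0.16, SE). Sema4a had 8.78, 7.98, 9.17 and 7.44 FPKM in Trap and 8.29 and 9.12 FPKM in control mTEC, against 0.14 to 1.49 FPKM in cTEC. In mTEC it overlapped endothelium at 6.12 to 11.0 FPKM and CD146 mesenchyme at 4.23 to 7.85 FPKM (log2 difference of mTEC 1.04 ± 0.15, SE). Of the 13 membrane semaphorins, Sema4d, Sema4f, Sema4g and Sema6c stayed under 5 FPKM in all 30 libraries.

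Plexins, the semaphorin receptors, were spread over all 5 populations, and some were highest in 1 of them. Plxnd1, the vascular plexin that binds Sema3e, had 63.1, 67.9, 69.7 and 65.2 FPKM in Trap and 83.8 and 88.3 FPKM in control endothelium, above CD146 mesenchyme at 18.8 to 32.5 FPKM. It was at most 7.17 FPKM in the remaining populations (log2 difference 3.34 ± 0.11, SE; limma, adjusted p = 1.7e-19). Sema3e, its ligand, was thus highest in cTEC, where Plxnd1 was at 3.18 to 4.34 FPKM. Plxna2, a receptor of class 6 semaphorins, had 43.6, 41.8, 52.7 and 49.5 FPKM in Trap and 49.6 and 52.1 FPKM in control endothelium and at most 14.4 FPKM elsewhere (2.18 ± 0.09). Plxna4, a receptor of class 3 and class 6 semaphorins, had 19.3, 17.6, 18.1 and 14.8 FPKM in Trap and 14.9 and 12.1 FPKM in control endothelium. It was at 6.13 to 7.83 FPKM in mTEC and at most 0.30 FPKM in cTEC, and endothelium overlapped neither (2.70 ± 0.20).

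Plxnb1, the receptor of Sema4d, was high in both epithelial populations. It had 25.0, 24.5, 24.03 and 22.01 FPKM in Trap and 22.3 and 24.2 FPKM in control cTEC, which overlapped mTEC at 19.3 to 25.0 FPKM. It was at 8.31 to 15.6 FPKM in CD146 mesenchyme and at most 1.12 FPKM in CD140a mesenchyme and 1.39 FPKM in endothelium. Plxna1 and Plxnb2 were present everywhere. Plxna1 had 19.7, 19.3, 21.6 and 20.2 FPKM in Trap and 15.2 and 23.4 FPKM in control CD146 mesenchyme and averaged 17.4 ± 2.51 FPKM in CD140a mesenchyme, 15.6 ± 1.97 in cTEC, 11.7 ± 1.46 in mTEC and 7.44 ± 1.88 in endothelium (SD, n = 6 each). Plxnb2 had 24.4, 23.0, 23.5 and 30.5 FPKM in Trap and 21.9 and 29.3 FPKM in control CD146 mesenchyme and averaged 24.7 ± 1.81 FPKM in mTEC, 20.1 ± 3.41 in CD140a mesenchyme, 12.4 ± 3.15 in endothelium and 11.7 ± 2.12 in cTEC. Neighbouring populations in both orders overlapped in their libraries, except cTEC and mTEC for Plxna1. In CD146 mesenchyme both passed, with log2 differences of 0.65 ± 0.10 and 0.61 ± 0.10 (SE). Plxna3, Plxnb3 and Plxnc1 were lower, with population means of at most 4.77, 1.28 and 2.95 FPKM.

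The Slit ligands, which repel axons and act on vessels, were mainly mesenchymal. Slit3 had 96.3, 98.8, 125 and 139 FPKM in Trap and 115 and 103 FPKM in control CD140a mesenchyme, against at most 67.2 FPKM in CD146 mesenchyme, 8.35 FPKM in endothelium, 1.81 FPKM in mTEC and 0.51 FPKM in cTEC. Slit2 had 12.3, 15.5, 14.7 and 15.2 FPKM in Trap and 15.1 and 17.5 FPKM in control CD140a mesenchyme, against 3.35 to 4.79 FPKM in CD146 mesenchyme. CD140a mesenchyme overlapped no other library for either, with log2 differences of 4.58 ± 0.20 and 2.51 ± 0.14 (SE; limma, adjusted p = 1.5e-16 and 5.1e-14). Slit1 was the exception, at 1.42 to 3.54 FPKM in mTEC and with lower means elsewhere.

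The Robo receptors differed in where they were highest. Robo4, the endothelial member of the family, had 77.9, 55.6, 88.8 and 81.2 FPKM in Trap and 94.6 and 109.5 FPKM in control endothelium and at most 0.52 FPKM in the other 24 libraries. Its log2 difference was 6.28 ± 0.11 (SE; limma, adjusted p = 1.2e-24). Robo3, known from axons that cross the midline, was at 2.85 to 6.60 FPKM in endothelium, 0.14 to 2.26 FPKM in mTEC and at most 0.24 FPKM in the other populations. Robo1, a Slit receptor, had 24.5, 25.0, 23.1 and 23.7 FPKM in Trap and 23.7 and 21.6 FPKM in control mTEC (log2 difference 1.83 ± 0.15, SE). It was at 11.7 to 16.3 FPKM in CD140a mesenchyme, 10.9 to 11.8 FPKM in cTEC, 3.64 to 8.05 FPKM in CD146 mesenchyme and 0.22 to 1.73 FPKM in endothelium. Of neighbours in that order, only CD140a mesenchyme and cTEC overlapped. Robo2, another Slit receptor, had 5.58, 6.24, 5.42 and 6.65 FPKM in Trap and 5.57 and 7.88 FPKM in control CD140a mesenchyme, above mTEC at 2.30 to 3.61 FPKM (log2 difference 2.06 ± 0.11, SE).

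The Robo genes lie in 2 neighbouring pairs on GRCm38. Robo4 (chr9:37401897-37415115, plus strand) and Robo3 (chr9:37415669-37433246, minus strand) end 553 bases apart, tail to tail, and both had their highest mean in endothelium. Robo1 (plus strand) and Robo2 (minus strand) lie on chromosome 16 with 845.743 kb and no other protein-coding gene between them, and both were lowest in endothelium. Whether reads were counted by strand is not given in the sources used here. Among the 43 genes, Ntn5 and Unc5a overlap protein-coding genes on the opposite strand (Sec1 and Hk3), so their values are uncertain.

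No netrin reached 10 FPKM in any library. Ntn1, the founding attractant of axons to the midline, had 5.73, 6.29, 6.66 and 4.25 FPKM in Trap and 7.99 and 3.97 FPKM in control CD140a mesenchyme, above every other library (highest 3.25 FPKM; log2 difference 1.75 ± 0.19, SE). Ntn4, a netrin of basement membranes, had 7.28, 3.02, 7.81 and 4.44 FPKM in Trap and 6.0 and 5.99 FPKM in control CD146 mesenchyme, which overlapped endothelium at 0.64 to 4.39 FPKM (1.52 ± 0.21). Ntn5 was at 1.14 to 4.70 FPKM in mTEC and overlapped endothelium at 0.52 to 3.65 FPKM.

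The Unc5 receptors, which mediate repulsion by netrins, differed in their main population. Unc5b, known from vessels, had 7.85, 9.78, 5.92 and 5.37 FPKM in Trap and 12.1 and 10.6 FPKM in control endothelium (log2 difference 1.14 ± 0.14, SE). The Trap libraries overlapped cTEC at 3.69 to 5.95 FPKM and both controls lay above all other populations. Unc5c had 9.80, 10.53, 11.96 and 14.2 FPKM in Trap and 12.1 and 14.4 FPKM in control CD140a mesenchyme, which overlapped CD146 mesenchyme at 7.99 to 11.7 FPKM (1.51 ± 0.12). It was at most 0.59 FPKM in endothelium. Unc5a, low throughout, reached 1.96 FPKM. Of the partners outside the family, neogenin (Neo1) averaged 39.3 ± 2.51 FPKM in CD140a mesenchyme, 36.6 ± 6.60 in CD146 mesenchyme, 28.2 ± 3.55 in mTEC, 25.0 ± 2.53 in cTEC and 9.86 ± 2.16 in endothelium (SD, n = 6 each). Dcc, the attractive netrin receptor of axons, averaged at most 0.595 FPKM in any population.

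The populations were each set against the average of the remaining 4 in limma, on log2(FPKM + 1), with a Benjamini-Hochberg adjusted p under 0.05 over all genes as the threshold. In endothelium 33 of 42 guidance genes passed (52.1% of all genes did), 14 higher (17.7%) and 19 lower (34.5%). In CD140a mesenchyme 32 passed (50.1%), 15 higher (17.1%) and 17 lower (33.0%). In CD146 mesenchyme 26 passed (43.2%), 16 higher (18.2%) and 10 lower (25.0%). By role, 6 of 9 plexins were higher in CD146 mesenchyme and the other 3 did not pass, and all 4 Robo genes were lower, of which Robo1 did not pass with TPM (-0.22).

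In cTEC 35 guidance genes passed (45.8% of all genes did), 6 higher (21.2%) and 29 lower (24.5%). The 6 were Sema4b (2.39 ± 0.16), Plxnb1 (2.22 ± 0.14), Sema3e (2.05 ± 0.18), Robo1, Unc5a and Plxna1 (log2 difference, SE), while all 3 Slits and all 3 netrins were lower. The median log2 difference over the 42 genes was -0.75 in cTEC, where that over all genes was -0.07. In mTEC 33 passed (55.8%), 21 higher (38.4%) and 12 lower (17.5%). That split depended on the scaling. With quantile normalization the median of all genes shifted by -0.33, 13 guidance genes were higher (26.0%) and 20 lower (35.0%), and the signs of Sema4f, Robo3 and Unc5a turned. A gene near 0 in 4 populations can be called lower in each of them because the remaining population raises the mean. Robo4 was called lower in both mesenchymal populations, cTEC and mTEC.

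Within the epithelium 29 guidance genes differed between cTEC and mTEC (41.2% of all genes did), 4 higher in cTEC (12.9%) and 25 lower (28.3%). Sema3e, Unc5b and Sema4b were higher, with log2 differences of 1.15 ± 0.23, 1.14 ± 0.18 and 1.13 ± 0.21 (SE). Plxna4 (-2.76 ± 0.26), Sema4a (-2.47 ± 0.19) and Sema7a (-2.19 ± 0.23) were lower, and Sema7a held 0.93 to 2.40 FPKM in the cTEC libraries, against 8.49 to 11.9 FPKM in the mTEC ones. All 3 Slits and all 4 Robo genes were lower, but with quantile normalization Slit3 did not pass and the sign of Robo4, at most 0.52 FPKM in both, turned, and Robo4 did not pass with upper quartile scaling either. With quantile normalization the median of all genes shifted by 0.28, and 7 guidance genes were higher (24.4%) and 16 lower (18.8%). The call of Sema3e ended when control libraries alone were compared (0.97, limma, adjusted p = 0.0665), and 19 guidance genes then passed, where 24.5% of all genes did. Thymocyte markers were higher in the cTEC libraries. Each epithelial population also held some markers of the other, with the mTEC markers summing to 104 to 155 FPKM in cTEC and the cTEC markers to 115 to 155 FPKM in mTEC. The markers in these sums were uneven. In cTEC Krt5 was at 66.1 to 95.2 FPKM and Aire at 0.34 to 1.98 FPKM. In mTEC Foxn1 was at 36.8 to 47.6 FPKM and Psmb11 at 0.17 to 2.56 FPKM. The part of thymocytes or of the other epithelial population in the differences between cTEC and mTEC was not tested.

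The libraries of the 6 genes named within the epithelium, where not given above, were as follows. Sema3e had 1.47, 1.23, 1.90 and 1.89 FPKM in Trap and 1.85 and 2.68 FPKM in control mTEC, all below cTEC. Unc5b had 5.95, 5.31, 5.24 and 3.69 FPKM in Trap and 4.72 and 5.15 FPKM in control cTEC, and 1.29, 1.60, 2.26 and 2.61 FPKM in Trap and 1.17 and 1.94 FPKM in control mTEC, so all cTEC libraries were higher. Sema4b had 7.59, 8.80, 12.4 and 11.5 FPKM in Trap and 7.03 and 8.57 FPKM in control mTEC, again all below cTEC. The 3 genes lower in cTEC did not overlap either. Plxna4 had 0.08, 0.20, 0.27 and 0.12 FPKM in Trap and 0.30 and 0.28 FPKM in control cTEC, and 6.13, 7.08, 7.67 and 7.83 FPKM in Trap and 7.40 and 7.57 FPKM in control mTEC. Sema4a had 0.48, 0.93, 1.00 and 0.14 FPKM in Trap and 0.35 and 1.49 FPKM in control cTEC. Sema7a had 9.54, 8.49, 11.9 and 10.9 FPKM in Trap and 11.2 and 11.6 FPKM in control mTEC, and its cTEC values are given with the effect of Trap.

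Between the mesenchymal populations 26 guidance genes differed (31.2% of all genes did), 11 higher in CD140a than in CD146 mesenchyme (13.5%) and 15 lower (17.7%). Sema3c (4.79 ± 0.22), Sema3d (3.89 ± 0.38) and Robo2 (2.67 ± 0.14) were the furthest on the CD140a side. Sema5b (-4.63 ± 0.26), Plxnb1 (-2.81 ± 0.18) and Sema6d (-2.05 ± 0.10) were the furthest on the CD146 side, all among genes at 5 FPKM or more in either population (log2 difference, SE). By role, 3 of 7 class 3 semaphorins were higher and 1 lower, and 2 of 13 membrane semaphorins were higher and 9 lower. Among control libraries alone 17 passed (16.2% of all genes did), 9 higher (7.06%) and 8 lower (9.16%). Schwann and neural markers summed to 1.78 to 8.70 FPKM in CD140a and 4.12 to 18.6 FPKM in CD146 mesenchyme, and their part was not tested.

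For the 3 genes named on the CD140a side, the CD146 libraries were all near 0 or low. Sema3c had 2.66, 4.41, 2.37 and 1.71 FPKM in Trap and 2.90 and 1.5 FPKM in control CD146 mesenchyme, Sema3d had 0.29, 1.04, 0.42 and 0.17 FPKM in Trap and 1.58 and 0.11 FPKM in control CD146 mesenchyme, and Robo2 had 0.18, 0.25, 0.18 and 0.03 FPKM in Trap and 0.03 and 0.24 FPKM in control CD146 mesenchyme. For the 3 named on the CD146 side the populations did not overlap either. Sema5b had 0.47, 0.11, 0.61 and 0.32 FPKM in Trap and 0.51 and 0.37 FPKM in control CD140a mesenchyme. Plxnb1 had 0.91, 0.82, 0.28 and 0.21 FPKM in Trap and 0.52 and 1.12 FPKM in control CD140a mesenchyme, and 8.83, 9.51, 9.72 and 11.3 FPKM in Trap and 8.31 and 15.6 FPKM in control CD146 mesenchyme. Sema6d had 15.3, 14.6, 13.5 and 17.2 FPKM in Trap and 13.5 and 12.3 FPKM in control CD140a mesenchyme, and 72.1, 51.8, 60.4 and 65.7 FPKM in Trap and 55.8 and 64.2 FPKM in control CD146 mesenchyme.

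**Figure D3:**
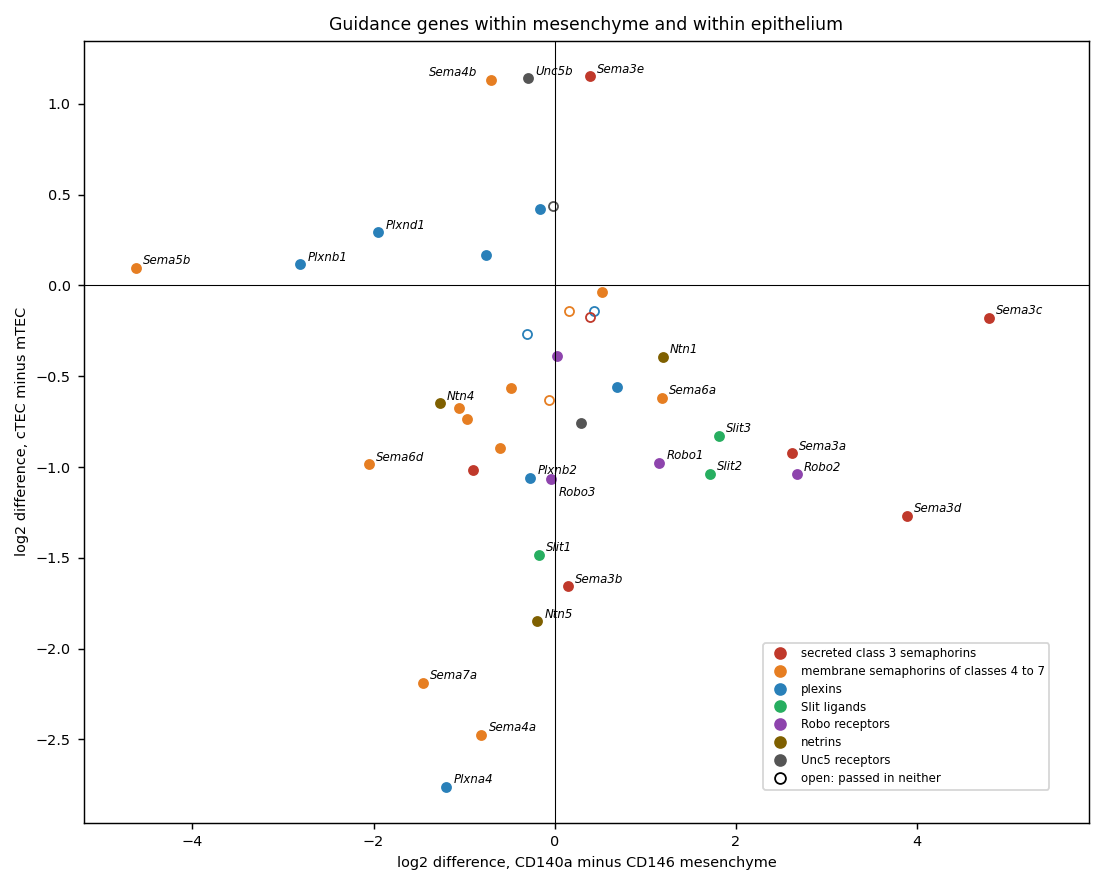
Log2 difference between cTEC and mTEC (vertical axis) against that between CD140a and CD146 mesenchyme (horizontal axis) for 42 guidance genes, coloured by role, with open points for genes that passed in neither comparison. Sema3c (4.79) and Sema5b (-4.63) lie at the horizontal ends, and Plxna4 (-2.76) and Sema3e (1.15) at the vertical ends.

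The wider pathway was counted from a list of 68 tested genes of coreceptors, cofactors and cytoplasmic effectors. In endothelium 24 were higher and 29 lower, in CD140a mesenchyme 17 and 23, in CD146 mesenchyme 26 and 23, in cTEC 21 and 25, and in mTEC 22 and 22. The shares of all genes given above hold for the same comparisons.

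Trap was compared with control within each population, which asks how levels there differed between Trap and hFc protein. No guidance gene passed in any of the 5 populations in limma. Of all genes, 1.74% passed in endothelium, 0.347% in mTEC, 0.0183% in CD146 mesenchyme, 0.00609% in cTEC and 0% in CD140a mesenchyme. At an unadjusted p under 0.05 there were 6 of 42 guidance genes in endothelium (14.9% of all genes), 2 in CD140a mesenchyme (3.71%), 1 in CD146 mesenchyme (5.0%), 1 in mTEC (7.49%) and 0 in cTEC (2.28%). The median size of the log2 change was 0.199 in endothelium (all genes 0.248), 0.149 in mTEC (0.203), 0.149 in CD140a mesenchyme (0.163), 0.177 in CD146 mesenchyme (0.173) and 0.110 in cTEC (0.148). None of the 68 related genes passed in limma either, with 7 of them at an unadjusted p under 0.05 in endothelium, where the share of all genes just given applies. With 2 control libraries in each population, these tests cannot show that a gene stayed the same.

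**Figure D4:**
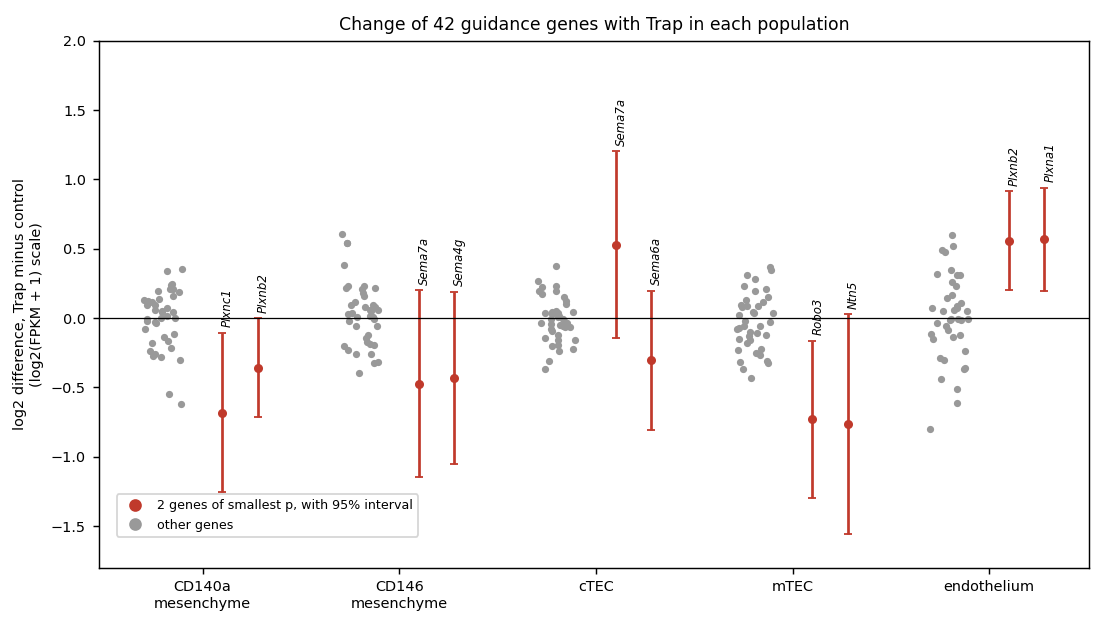
Log2 difference between Trap and control for 42 guidance genes in each population; red points with bars are the 2 genes of smallest p among those at 1 FPKM or more, with their 95% intervals, and grey points are the other genes. In endothelium the intervals of Plxnb2 (0.20 to 0.91) and Plxna1 (0.20 to 0.94) lie above 0, and neither passed after adjustment. The intervals use a spread pooled over all 10 groups.

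In endothelium the smallest p-values belonged to 2 plexins. Plxnb2, a receptor of class 4 semaphorins, had 16.8, 13.2, 11.1 and 15.0 FPKM in Trap and 9.09 and 9.10 FPKM in control endothelium. All Trap libraries lay above both controls, and the log2 difference was 0.56 ± 0.17 (SE; 95% interval 0.20 to 0.91; limma, adjusted p = 0.102). Plxna1, a receptor of class 3 and class 6 semaphorins, had 7.56, 10.3, 7.97 and 8.07 FPKM in Trap and 5.60 and 5.12 FPKM in control endothelium, again without overlap (0.57 ± 0.18; limma, adjusted p = 0.108).

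Whether Plxnb2 passed depended on 1 library. It did so without Trap replicate 3 (0.66, limma, adjusted p = 0.0447), and over all alternatives its adjusted p lay between 0.0447 and 0.711. Without Trap replicate 2, which held epithelial transcripts, Plxnb2 was at 0.58 and Plxna1 at 0.48. The 8 fibroblast markers summed to 17.2, 14.1, 14.3 and 15.9 FPKM in Trap and 12 and 6.55 FPKM in control endothelium, without overlap. Of the 8, 7 reached 1 FPKM in a Trap library and 2 in a control library, with 4 Trap libraries against 2 controls to reach it in. Pdgfra, Col1a1, Lum, Dpt and Pi16 had all Trap libraries above both controls, while Col3a1, Dcn and Dpp4 overlapped. Col3a1, the largest item, was at 6.02, 6.47, 5.4 and 6.78 FPKM in Trap and 8.25 and 5.47 FPKM in control endothelium. Both plexins and the sum of these markers, but not each marker, were higher in the Trap libraries. The part of the markers' cells in the plexin values was not tested.

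In 11 of 42 guidance genes the 4 endothelial Trap libraries were all above or all below both controls, as were 14.8% of all genes. Plxna1, Plxnb2, Sema3c, Sema6a and Sema6b lay above, and Plxnd1, Robo4, Sema3e, Sema4g, Sema6d and Unc5b lay below, with Sema3e at 0.01 FPKM or less in all 6 libraries. The next 4 were chosen after their values were seen, and none of them passed. Unc5b, whose values are given above, had a log2 difference of -0.61 (limma, adjusted p = 0.243). Plxnd1 had -0.37 (adjusted p = 0.365) and Robo4 -0.44 (adjusted p = 0.285). Sema4g had 0.30, 0.01, 0.42 and 0.05 FPKM in Trap and 1.04 and 1.08 FPKM in control endothelium and a log2 difference of -0.80 ± 0.30 (limma, adjusted p = 0.189).

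**Figure D5:**
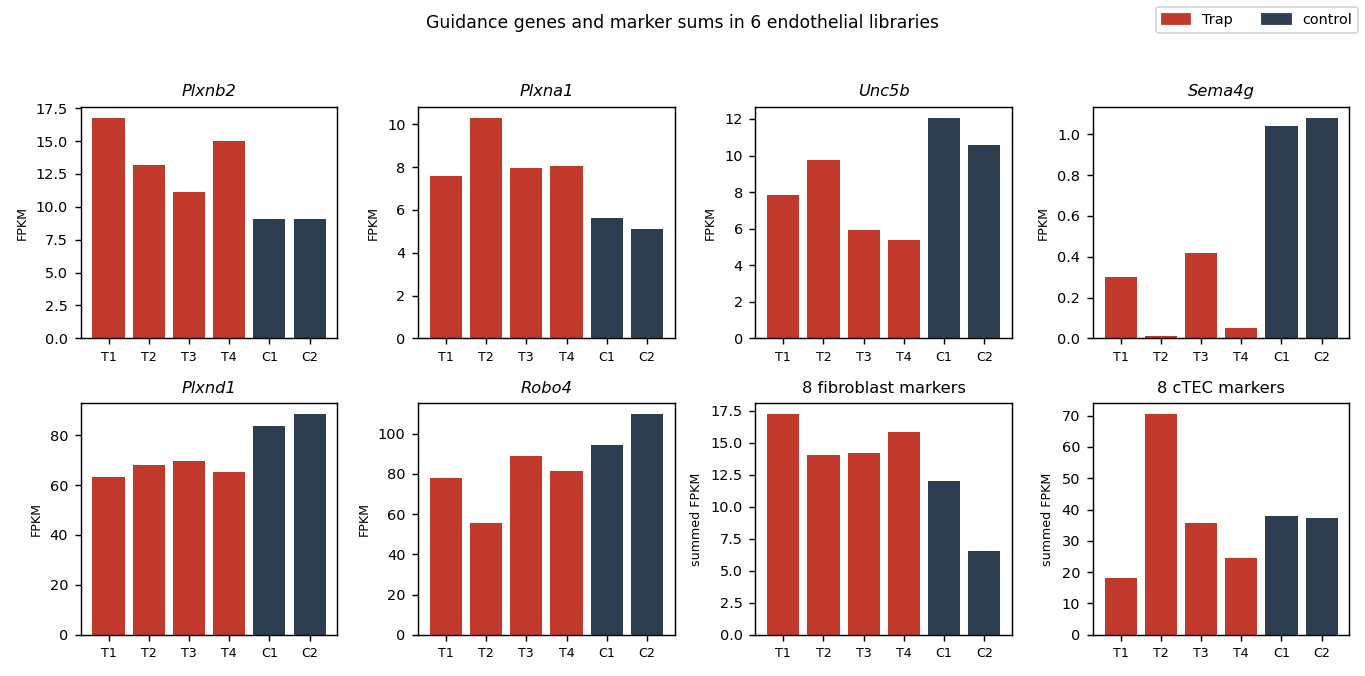
Bars give FPKM of 6 guidance genes and the summed FPKM of 8 fibroblast and 8 cTEC markers in the 6 endothelial libraries (T1 to T4 Trap, red; C1 and C2 control, dark), each axis from 0. Plxnb2 is at 11.1 to 16.8 FPKM in the Trap bars and at 9.09 and 9.10 FPKM in control, and the cTEC markers reach 70.4 FPKM in Trap replicate 2, against at most 37.9 FPKM in the other 5. In those 5 the sum is mostly Dll4, at 10.1 to 30.9 FPKM, which is at 12.5 FPKM in Trap replicate 2. Tbata, Prss16 and Foxn1 are at 26, 11.55 and 11.0 FPKM in Trap replicate 2 and at most 4.37, 1.59 and 0.11 FPKM in the other 5.

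In CD140a mesenchyme Plxnc1, the receptor of Sema7a, had 3.12, 2.10, 2.10 and 1.87 FPKM in Trap and 4.10 and 4.38 FPKM in control CD140a mesenchyme, without overlap (-0.68 ± 0.28, SE; limma, adjusted p = 1). Plxnb2 had 15.7, 17.4, 19.1 and 21.1 FPKM in Trap and 22.4 and 25.0 FPKM in control CD140a mesenchyme, also without overlap (-0.36 ± 0.17; limma, adjusted p = 1). Neither passed, and the groups were apart for 5 of 42 guidance genes there, against 11.9% of all genes.

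In mTEC Robo3 had 0.40, 0.14, 0.55 and 1.93 FPKM in Trap and 2.26 and 1.27 FPKM in control mTEC, with Trap replicate 4 between the controls (-0.73 ± 0.27, SE; limma, adjusted p = 0.443). Without that library its difference was -1.01 and passed (limma, adjusted p = 0.0328), and over all alternatives its adjusted p lay between 0.0328 and 1. Ntn5 had 1.87, 1.44, 4.70 and 1.14 FPKM in Trap and 3.86 and 4.49 FPKM in control mTEC, which overlapped (-0.76 ± 0.39; limma, adjusted p = 0.694). The groups were apart for 4 guidance genes, against 13.5% of all genes: Plxnb2, Robo4, Sema3a and Slit2, each with Trap below both controls.

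In CD146 mesenchyme Sema7a had 5.13, 2.22, 5.06 and 4.69 FPKM in Trap and 4.56 and 8.03 FPKM in control CD146 mesenchyme, which overlapped (-0.47 ± 0.33, SE). Sema4g, a ligand of plexin B2, had 0.99, 1.00, 0.85 and 0.43 FPKM in Trap and 1.07 and 1.85 FPKM in control CD146 mesenchyme, without overlap (-0.43 ± 0.30; limma, adjusted p = 1 for both). The groups were apart for 3 guidance genes there, against 12.6% of all genes. In cTEC Sema7a had 2.31, 1.75, 2.40 and 1.99 FPKM in Trap and 1.39 and 0.93 FPKM in control cTEC, without overlap (0.53 ± 0.33). Sema6a had 6.36, 6.73, 8.24 and 7.40 FPKM in Trap and 8.13 and 10.1 FPKM in control cTEC, which overlapped (-0.31 ± 0.24; limma, adjusted p = 1 for both genes). The groups were apart for 7 guidance genes in cTEC, against 13.5% of all genes. The thymocyte markers summed to 78.4 to 121 FPKM in Trap and 50.3 and 72.8 FPKM in control cTEC, and their part was not tested.

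Over the mean of the 5 populations no guidance gene passed in limma, where 0.426% of all genes did, and 0 had an unadjusted p under 0.05, where 11.9% of all genes did. The smallest adjusted p-values were those of Sema4g (-0.26, limma, adjusted p = 0.470) and Plxna1 (0.14, adjusted p = 0.505). The endothelial Trap change was also tested for a difference from the average one in the remaining 4 populations. Again no guidance gene passed in limma, where 0.280% of all genes did, and 5 of 42 had an unadjusted p under 0.05, where 11.0% of all genes did. The difference was 0.70 ± 0.19 for Plxnb2 (SE; 95% interval 0.30 to 1.1; limma, adjusted p = 0.115) and 0.53 ± 0.20 for Plxna1 (adjusted p = 0.288).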

How the data were processed

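Per the labels' protocols, RNA was amplified before library construction (Ovation RNA-Seq System V2) and sequenced as read pairs. The submitters' processing notes name bcl2fastq 2.17, STAR and DESeq2 and the builds GRCm38 and mm10, with counting program, strand setting and annotation not given in the sources used here. A single deposited table holds FPKM values rounded to 2 decimals. Depth is unknown, since steps between low values gave no grid of whole reads (best score 0.259, where 1 is a perfect grid), and precision was judged from replicate spread alone. An exact 0 means only that a gene is listed at 0.

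Values were tested as log2(FPKM + 1) with limma 3.58.1 in R 4.3.3 (lmFit, eBayes with trend) on 16425 genes at 1 FPKM or more in at least 2 libraries, with 10 group means over 30 libraries and two-sided Benjamini-Hochberg adjustment over all genes. This scale understates changes of low genes. Standard errors and intervals use a spread pooled over all 10 groups, so they do not follow the spread of a single population. With 1 weight per population, where a lower weight means a wider spread, endothelium had the lowest, 0.573, against 0.794 in mTEC and up to 1.66 in cTEC. No libraries were identical. The script was tested on simulated data. Alternatives were a pseudocount of 0.1, other filters, TPM, upper quartile and quantile scaling, 1 weight per population, only the compared libraries, replicate blocks and each library left out.

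Coordinates are from GENCODE M21, where 18836 of 18847 identifiers and all 43 members were found. Values of each library are given for members that passed and were highest in a population at 5 FPKM or more, for the 3 largest changes in each direction between the epithelial and between the mesenchymal populations at that level, and, where none passed for Trap, for the 2 of smallest p at 1 FPKM or more. Members and lists were chosen with earlier results of these data known.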

Additional observations from a re-analysis of the deposited data

Results flagged for a closer look

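In CD146 mesenchyme Sema7a was at 2.22 FPKM in Trap replicate 2 and at 4.69 to 5.13 FPKM in the other 3 Trap libraries, a gap of 0.849 of the range of the 4. It was the only gap flagged among 72 groups, where chance gives about 1 in 20. Each group was the 4 Trap libraries or all 6 libraries of a population for 1 named gene. The same library had the highest summed fibroblast markers of its population, at 420 FPKM with the other 5 at 271 to 394 FPKM. Among these markers only Col1a1 was highest in that library, at 166 FPKM with the other 5 at 30.5 to 134 FPKM. Col3a1, at 197 FPKM, and Dcn, at 20.6 FPKM, lay within the other 5, at 184 to 209 and 13.2 to 24.7 FPKM.

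Plxnb2 had Trap libraries on opposite sides of the controls in different populations. Its mean was higher by 4.91 FPKM in Trap than in control endothelium, with all 4 Trap libraries above both controls. The Trap minus control difference was -5.36 FPKM in CD140a mesenchyme and -3.24 FPKM in mTEC, with all Trap libraries below both controls. These differences between pairs of populations were not tested. Opposite sides were sought only among the 8 members named for a Trap comparison, which had been picked by their small p-values. The shares of all genes with such a separation were 14.8% in endothelium, 11.9% in CD140a mesenchyme and 13.5% in mTEC.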

How the results depend on the processing

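Of 57 results for single members, 4 changed their side of the threshold under an alternative (Sema4c in CD146 mesenchyme, Sema3e between cTEC and mTEC, and Trap against control for Plxnb2 in endothelium and Robo3 in mTEC, with the values in the report); none of the 57 changed direction. The number of members passing for Trap was 0 in each population and in both comparisons across populations, and it was 0 to 1 on leaving out a library in mTEC (1 without Trap replicate 4) and in endothelium (1 without Trap replicate 3). On leaving out each library the number passing was 28 to 33 for CD140a mesenchyme, 22 to 27 for CD146 mesenchyme, 31 to 36 for cTEC, 29 to 34 for mTEC, 30 to 34 for endothelium, 23 to 30 for cTEC against mTEC and 23 to 26 for CD140a against CD146 mesenchyme. Over the other alternatives, control or Trap libraries alone included, it was 29 to 32 for CD140a and 20 to 27 for CD146 mesenchyme. The same number was 26 to 37 for cTEC, 27 to 34 for mTEC and 28 to 34 for endothelium. Control libraries alone, a choice made after seeing the data with fewer samples, gave 19 for cTEC against mTEC and 17 for CD140a against CD146 mesenchyme. Over all genes, Trap in endothelium gave 286 calls, 97 without control replicate 1 and 476 without control replicate 2, 176 with quantile normalization, 89 with a replicate block by treatment and number, 13 with 1 weight per population and 0 from endothelial libraries alone. In mTEC it gave 57, and 0 to 199 over the alternatives; the mean over populations gave 70, and 27 and 5 with a replicate block by number or by treatment and number. The causes were not tested. Members passing for Trap stayed at 0 with either replicate block, with Plxnb2 in endothelium at 0.50 and 0.59. Same-numbered Trap and control libraries correlated at -0.275 to 0.0809 in their deviations from group means. With 2 controls per population these deviations mirror each other, so the check cannot show whether same-numbered libraries share animals or handling. Depth, and so the reach for low genes such as Robo3 and Sema4g, is unknown.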

Other observations

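In some libraries a member and the summed markers of another cell type were high together. These cases were chosen after their values were seen. In endothelium Sema3d had 6.02, 5.21, 1.07 and 0.15 FPKM in Trap and 4.39 and 0.23 FPKM in control. The 5 lymphatic endothelial markers summed to 156, 293, 77.4 and 53.7 FPKM in Trap and 152 and 48.0 FPKM in control, so the 3 libraries highest in Sema3d were the 3 highest in these markers. The list is not specific to endothelium, since it summed to 349 to 1771 FPKM in mTEC, mostly Ccl21a at 320 to 1749 FPKM. In endothelium Ccl21a had 53.25, 202, 29.0 and 30.5 FPKM in Trap and 85.5 and 16.35 FPKM in control. Prox1 had 34.1, 42.46, 22.64 and 7.02 FPKM in Trap and 22.67 and 9.35 FPKM in control endothelium. Lyve1 had 46.8, 19.4, 9.96 and 1.32 FPKM in Trap and 20.1 and 1.71 FPKM in control endothelium.

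In CD146 mesenchyme Slit3 had 35.1, 67.2, 25.8 and 25.8 FPKM in Trap and 34.8 and 20.8 FPKM in control, and the 8 fibroblast markers summed to 327, 420, 272 and 281 FPKM in Trap and 394 and 271 FPKM in control. Trap replicate 2 was the highest library in both. Among the 8 markers only Col1a1 was highest there, at 166 FPKM against 30.5 to 134 FPKM in the rest of CD146 mesenchyme. Col3a1 was at 197 FPKM there and at 184 to 209 FPKM in the rest. Of the mural markers, the same library had the highest Acta2, at 1217 FPKM against 451 to 899 FPKM. It had the lowest Rgs5, at 2783 FPKM against 3260 to 4382 FPKM. The part of other cells in the Sema3d and Slit3 values was not tested.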
